A study of Mus musculus with 6 samples.

Results

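Plasma cells were identified among CD45+ leukocytes of B16-F10 tumors, a transplantable mouse melanoma, by single-cell RNA-Seq. Of 30067 barcodes kept in 6 samples, 193 were plasma cells. The 3 αPD-1 samples held 188 of them and the 3 samples given αPD-1 + corin held 5. A barcode was kept with 600 to 4000 detected genes and at most 10% mitochondrial UMIs (unique molecular identifiers, 1 per captured RNA molecule). It was called a plasma cell when Jchain, Mzb1, Sdc1 and Tnfrsf17 summed to at least 5 UMIs with Jchain and Mzb1 both present, with no UMI of Ms4a1, Siglech, Cd3d, Cd3e or Cd3g and at most 1 UMI of the C1q genes. The cells were thus chosen by the UMI counts of these genes, whose levels are a description and are not tested.

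Plasma cells are the antibody-secreting end stage of the B cell lineage. On differentiation they replace the B cell program with one driven by Prdm1, Irf4 and Xbp1, enlarge the endoplasmic reticulum (ER) and secrete immunoglobulin of the class that the cell has switched to. In tumors they can arise from B cells activated locally or can enter from lymphoid tissue, and dividing precursors of this stage are called plasmablasts.

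All mice were female C57BL/6 mice of 6 to 10 weeks carrying B16-F10 tumors, with 10 mice per arm. The αPD-1 group received 150 µg of antibody against the checkpoint receptor PD-1, 3 times a week from day 7, and the combination group also received 200 µg of corin, an inhibitor of the CoREST complex (LSD1 and HDAC1/2), from day 6. The vehicle held 5% DMSO. Tumor cells had been cryopreserved, cleared of dead cells and enriched on CD45 microbeads before 5′ library preparation, and no label ties a sample to particular mice, so the p-values below measure only the spread between these samples, which may be technical. Neither an untreated nor a corin-only sample was analysed here.

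The αPD-1 samples held 6433 to 7000 barcodes and the αPD-1 + corin samples 9637 to 13228, with 52281422 to 84276739 UMIs per sample. Kept barcodes numbered 4465, 3763 and 4424 in αPD-1 and 8310, 4174 and 4931 in αPD-1 + corin. The libraries shared 299 barcode sequences, 5 of which belonged to a plasma cell in 1 library, and none was a plasma cell in both. Scrublet scores each barcode against simulated doublets. The top-scoring barcodes of each library were marked, their number being set by an assumed rate of 0.4% per 1000 barcodes. Among those marked were 5 of the plasma cells in αPD-1, and these were kept. Plasma cells were deeply sampled, with median UMIs of 10572, 14844 and 9419 per cell in αPD-1 replicates 1 to 3, against 1842.5, 2154 and 1906 per B cell.

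The cells carried the marker that the gate did not use. Xbp1, the transcription factor of the unfolded protein response that secretory cells need, had a UMI in 98.1%, 100% and 93.8% of plasma cells in αPD-1 replicates 1 to 3. B cells were barcodes with Ms4a1, at least 3 UMIs of Ms4a1, Cd79a and Cd79b and none of Jchain, Sdc1 or Tnfrsf17, and C1q macrophages had at least 5 UMIs of the C1q genes. Xbp1 had a UMI in 14.3%, 13.0% and 10.5% of B cells and in 28.3%, 39.6% and 28.5% of C1q macrophages. Scaled to depth, Xbp1 was at 1656, 1647 and 1379 raw CPM (UMIs of the gene over all UMIs of the class, in the usual CPM scale without further normalization) in plasma cells and at 70.04, 56.8 and 49.99 in B cells. All 5 plasma cells of αPD-1 + corin had an Xbp1 UMI.

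Markers of other cell types were summed over the plasma cells, and the gate itself fixed part of these values. T cell markers summed to 3.49, 0 and 1.55 raw CPM, with Cd3d, Cd3e and Cd3g at 0 by the gate and 4, 0 and 1 UMIs of Trac and Trbc2 in all. Macrophage markers summed to 6.97, 17.9 and 18.7 raw CPM, with the C1q genes held to at most 1 UMI per cell by the gate. Outside the gate, Adgre1 was at 0 in the 3 samples and Csf1r had 2, 0 and 6 UMIs. Melanoma markers, which the gate did not use, summed to 27.9, 62.7 and 23.3 raw CPM. The plasmacytoid dendritic cell list summed to 713, 528 and 1065, and 3, 4 and 4 of its 5 genes were at 0, Siglech among them by the gate. Bst2, an interferon-induced surface protein on that list that B lineage cells also make, had a UMI in 92.6%, 93.3% and 93.8% of plasma cells.

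Few barcodes lay at the threshold. Just inside it, 1 plasma cell in αPD-1 replicate 1 had 5 gate UMIs, and just outside it, 4, 1 and 3 barcodes had 4. Median gate UMIs were 284, 435 and 196, and 8, 1 and 6 plasma cells had under 50. The 4-gene threshold alone was passed by 227, 31 and 149 barcodes in αPD-1 and by 6, 5 and 2 in αPD-1 + corin, so the exclusions on Ms4a1, Siglech, Cd3 and C1q removed 119, 16 and 84 barcodes and 4, 2 and 2 barcodes.

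The first comparison asked whether the share of plasma cells among kept barcodes differed with corin. Non-immune barcodes were not removed, so this is not a share of leukocytes alone. A UMI of Ptprc, the CD45 gene, was in 3780, 3317 and 3683 kept barcodes in αPD-1 and 5117, 3239 and 3716 in αPD-1 + corin. Plasma cells made up 2.42% of kept barcodes in αPD-1 replicate 1 (108 of 4465, 95% exact binomial interval 1.99 to 2.91), 0.399% in replicate 2 (15 cells, 0.223 to 0.657) and 1.47% in replicate 3 (65 cells, 1.14 to 1.87). In αPD-1 + corin they made up 0.0241% in replicate 1 (2 cells, 0.00291 to 0.0869), 0.0719% in replicate 2 (3 cells, 0.0148 to 0.210) and none in replicate 3, where the exact interval of 0 in 4931 reaches up to 0.0748% and the limit set by 3 counts is 0.0608%. Every αPD-1 sample lay above every αPD-1 + corin sample, and the αPD-1 samples spread widely among themselves.

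The means were 1.43% ± 1.01 in αPD-1 and 0.0320% ± 0.0366 in αPD-1 + corin (SD, n = 3 each). The difference of -1.40 percentage points had p = 0.1 in a two-sided exact permutation test, the smallest p that 3 samples against 3 can give. The intervals and the limit cover counting error only. A share also depends on the other cells in the sample: C1q macrophages numbered 505, 631 and 442 in αPD-1 and 3722, 1068 and 873 in αPD-1 + corin, and the part of this in the share was not tested.

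**Figure D1:**
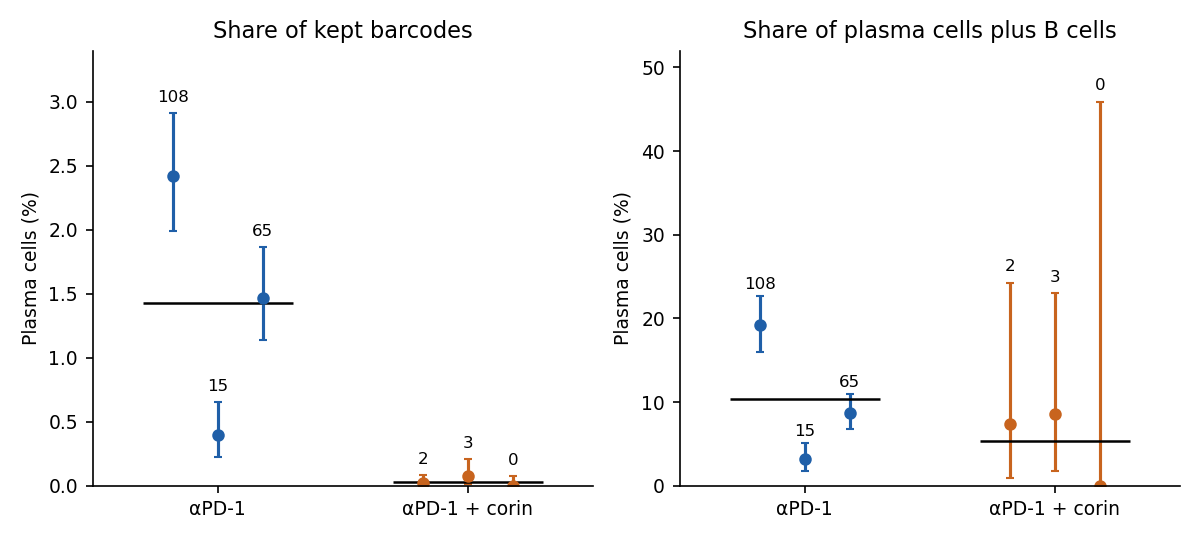
Plasma cells as a percent of kept barcodes (left) and of plasma and B cells together (right), 1 point per sample with its 95% exact binomial interval, the number of plasma cells above it and a horizontal line at each group's mean, in the 3 αPD-1 (blue) and 3 αPD-1 + corin (orange) samples. The left panel shows αPD-1 samples at 0.399% to 2.42% above αPD-1 + corin samples at 0 to 0.0719%, and the right panel shows overlapping groups.

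B cells were lower in the same samples. They made up 10.2%, 12.3% and 15.5% of kept barcodes in αPD-1 and 0.301%, 0.767% and 0.122% in αPD-1 + corin, with means of 12.6% ± 2.67 and 0.396% ± 0.333 (SD, n = 3 each, exact permutation p = 0.1, two-sided). Plasma cells as a share of plasma and B cells together were 19.2%, 3.15% and 8.68% in αPD-1 and 7.41%, 8.57% and 0% in αPD-1 + corin. The groups overlapped, with means of 10.3% ± 8.16 and 5.33% ± 4.65 (SD, n = 3 each), and the difference of -5.02 percentage points had an exact permutation p of 0.4. With 2, 3 and 0 plasma cells beside 25, 32 and 6 B cells in αPD-1 + corin, a difference of this size was not detectable at this depth. Its direction turned with the gate and with thinning. It was 0.116 without the exclusions and 2.66 with barcodes of at least 1000 UMIs thinned to 1000 and the others left out. The thinned value rested on 4, 2 and 1 plasma cells beside 11, 18 and 3 B cells in αPD-1 + corin.

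The 5 plasma cells of αPD-1 + corin had no V gene pair in common. In replicate 1, an IgM cell paired Ighv5-16 with Igkv1-110, and an IgG1 cell paired Ighv1-26 with Igkv9-120. In replicate 2, an IgA cell paired Ighv9-3 with Igkv1-135, an IgG1 cell paired Ighv1-75 with Igkv8-21 and another IgG1 cell paired Ighv1-76 with Igkv10-96. Immunoglobulin genes took 43.7%, 40.3%, 10.8%, 24.4% and 40.1% of their UMIs, in that order. With 2, 3 and 0 cells, no comparison of gene expression by treatment in plasma cells could be fitted, and the results that follow describe the 188 plasma cells of the αPD-1 samples.

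The heavy chain class of each cell was taken from the constant gene holding at least 70% of its heavy constant UMIs, with at least 5 such UMIs. A class was called for 103 of 108, 14 of 15 and 63 of 65 cells. Within a called cell 1 constant gene dominated, at a median of 99.7%, 99.6% and 99.5% of heavy constant UMIs over medians of 562, 727.5 and 514 UMIs. IgG1, the class that IL-4 favors in mice, was called in 53.4% (55 cells, 95% exact interval 43.3 to 63.3), 50% (7 cells) and 57.1% (36 cells). IgG2c, which interferon-γ favors in C57BL/6 mice, was called in 24.3%, 35.7% and 27.0%. IgG2b was called in 16.5%, 14.3% and 12.7%.

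The order IgG1, IgG2c, IgG2b held in each of the 3 samples, although the 95% exact intervals of IgG2c and IgG2b overlapped in each. They were 16.4 to 33.7 and 9.92 to 25.1 in replicate 1, and 16.6 to 39.7 and 5.65 to 23.5 in replicate 3. In replicate 2, with 7, 5 and 2 cells, IgG1 (23.0 to 77.0), IgG2c (12.8 to 64.9) and IgG2b (1.78 to 42.8) all overlapped, so the order was not resolved. IgG of any subclass made up 96.1%, 100% and 96.8% of called cells, a mean of 97.6% ± 2.07 (SD, n = 3), and IgG1 alone 53.5% ± 3.57. Unswitched IgM was called in 2, 0 and 2 cells, IgA in 2, 0 and 0 and IgG3 in 2, 0 and 0. All 183 cells with a called light chain were kappa, a call that rests on how reads were counted to light chain genes, which was not checked. With 4 IgM cells in all, switched and unswitched cells could not be compared in a fit.

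**Figure D2:**
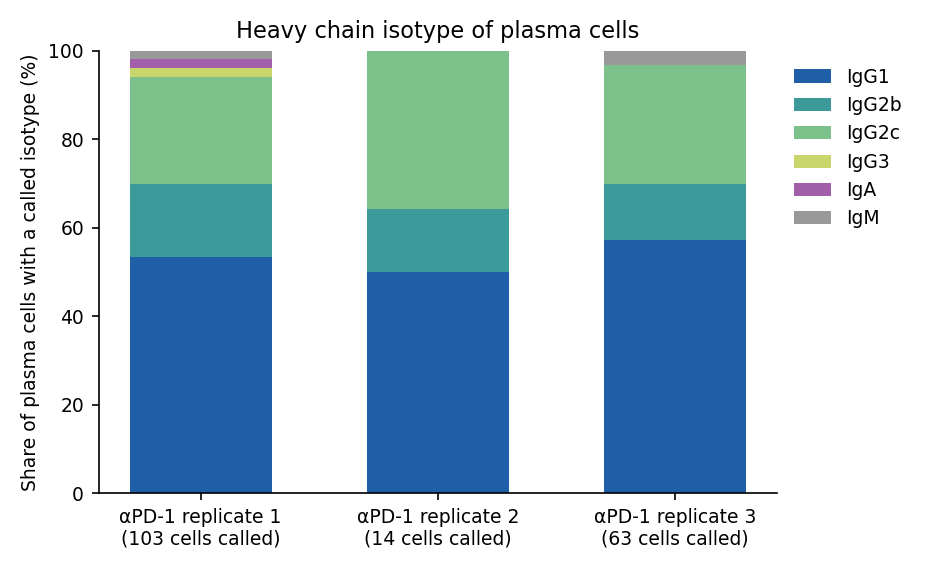
Heavy chain class of plasma cells in the 3 αPD-1 samples, as the percent of cells with a called class (103, 14 and 63 cells), 1 stacked bar per sample with a color per class. IgG1 takes the largest part of each bar at 50% to 57.1%, followed by IgG2c at 24.3% to 35.7% and IgG2b at 12.7% to 16.5%.

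Variable (V) genes were assigned per cell. A heavy V gene was called, by the same rule, in 175 cells and a light V gene in 171. Ighv1-26 was the most used heavy V gene, in 58 cells (33.1%), of which 47 were in replicate 1, 2 in replicate 2 and 9 in replicate 3. Ighv1-19 followed with 15 cells in 1 sample. Of the light V genes, Igkv10-96 was used in 37 cells (21.6%), Igkv1-135 in 28 and Igkv4-74 and Igkv8-21 in 18 each. Igkv10-96 was in 30, 3 and 4 cells of replicates 1 to 3 (29.7%, 25% and 6.90%), so its pooled share rested mostly on replicate 1. Replicates 1 and 3 held 26 and 2 of the Igkv1-135 cells, 15 and 3 of the Igkv4-74 cells and 6 and 12 of the Igkv8-21 cells.

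Ighv1-26, Ighv1-19, Igkv10-96, Igkv4-74 and Igkv1-135 made up the 4 largest heavy and light pairs, so up to 300 bases of their exons are printed 5′ to 3′ on the coding strand from the GRCm39 reference, not from the reads. All are coding exons of germline V segments of the heavy chain locus on chromosome 12 or the kappa locus on chromosome 6. Capitals mark bases that differ from the most similar V gene of the same locus, since reads from near-identical V genes can be assigned to the wrong one. That gene is Ighv1-18 for Ighv1-26 (8 of 305 bases), Ighv1-26 for Ighv1-19 (12 of 305), Igkv10-94 for Igkv10-96 (16 of 298), Igkv4-78 for Igkv4-74 (19 of 309, of which 17 are in the printed stretch) and Igkv1-133 for Igkv1-135 (11 of 313).
Ighv1-26 (chr12:114751997-114752296, minus strand): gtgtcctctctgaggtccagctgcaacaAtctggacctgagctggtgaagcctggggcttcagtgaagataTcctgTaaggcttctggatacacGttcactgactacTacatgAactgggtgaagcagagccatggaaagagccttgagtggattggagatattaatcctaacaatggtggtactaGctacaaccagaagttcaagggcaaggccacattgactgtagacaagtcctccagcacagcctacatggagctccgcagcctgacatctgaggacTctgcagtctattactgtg
Ighv1-19 (chr12:114672273-114672572, minus strand): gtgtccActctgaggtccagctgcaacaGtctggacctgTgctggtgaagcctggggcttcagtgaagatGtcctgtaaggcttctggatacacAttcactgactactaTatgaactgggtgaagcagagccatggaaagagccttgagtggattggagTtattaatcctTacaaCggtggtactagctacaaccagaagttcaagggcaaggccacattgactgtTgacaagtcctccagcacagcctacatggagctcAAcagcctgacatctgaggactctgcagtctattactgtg
Igkv10-96 (chr6:68608947-68609244, minus strand): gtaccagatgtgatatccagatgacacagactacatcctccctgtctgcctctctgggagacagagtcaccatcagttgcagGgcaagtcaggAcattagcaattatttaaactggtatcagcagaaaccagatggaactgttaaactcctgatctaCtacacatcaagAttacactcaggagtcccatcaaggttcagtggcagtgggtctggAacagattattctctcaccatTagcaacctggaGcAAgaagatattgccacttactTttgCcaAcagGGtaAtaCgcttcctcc
Igkv4-74 (chr6:69161819-69162118, minus strand): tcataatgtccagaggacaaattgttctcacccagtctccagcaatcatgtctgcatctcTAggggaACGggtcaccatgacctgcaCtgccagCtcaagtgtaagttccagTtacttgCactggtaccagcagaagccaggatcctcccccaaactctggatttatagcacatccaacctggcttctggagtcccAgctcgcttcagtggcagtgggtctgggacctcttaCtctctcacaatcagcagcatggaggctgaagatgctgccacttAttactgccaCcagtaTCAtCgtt
Igkv1-135 (chr6:67587180-67587479, plus strand): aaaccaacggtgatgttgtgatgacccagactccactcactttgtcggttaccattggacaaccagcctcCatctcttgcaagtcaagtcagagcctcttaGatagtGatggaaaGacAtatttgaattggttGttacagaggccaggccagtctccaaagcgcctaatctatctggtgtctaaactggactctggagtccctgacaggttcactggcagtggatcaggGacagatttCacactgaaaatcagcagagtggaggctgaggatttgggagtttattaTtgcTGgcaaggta

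Identity to the nearest gene was 97.4% for Ighv1-26, 96.1% for Ighv1-19, 94.6% for Igkv10-96, 93.9% for Igkv4-74 and 96.5% for Igkv1-135. Ighv1-26 had 4 heavy V genes at 95% identity or more among 111 compared, so its count is uncertain against them. The nearest, Ighv1-18, was called in 7 cells. Within a cell the leading heavy V gene held a median of 99.8%, 99.7% and 99.5% of heavy V UMIs in the 3 samples.

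Plasma cells repeated their V pairs. In replicate 1, 101 cells with both V genes called held 31 distinct pairs, and 86 cells (85.1%) carried a pair found in another plasma cell of the sample. In replicate 2 the 12 cells held 6 pairs with 75% of cells in repeated pairs, and in replicate 3 the 55 cells held 31 pairs with 65.5%. In B cells, V genes were called from at least 3 UMIs because these cells hold fewer. Both were called in only 82 of 454, 135 of 461 and 69 of 684 B cells, against 101 of 108, 12 of 15 and 55 of 65 plasma cells. The called B cells had 77, 134 and 67 pairs, with 11.0%, 1.48% and 5.80% of cells in repeated pairs. The share was higher in plasma cells in each of the 3 samples, and an exact test on 3 pairs cannot go below p = 0.25. The deposited counts hold no junction sequence, so a shared V pair is not a clonotype.

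The most frequent pairs differed between samples. In replicate 1 the 4 largest pairs held 58 of the 101 cells (57.4%): Ighv1-26 with Igkv10-96 in 17 cells, Ighv1-26 with Igkv4-74 in 15, Ighv1-19 with Igkv1-135 in 13 and Ighv1-26 with Igkv1-135 in 13. In replicate 2 the largest was Ighv1-4 with Igkv10-94 in 4 cells. In replicate 3 the largest were Ighv1-66 with Igkv8-21 and Ighv5-17 with Igkv8-21, in 5 cells each. Of 71 distinct pairs over the 6 samples, 2 were found in more than 1 sample: Ighv1-26 with Igkv10-96 (17 and 4 cells) and Ighv5-17 with Igkv8-21 (1 and 5 cells).

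**Figure D3:**
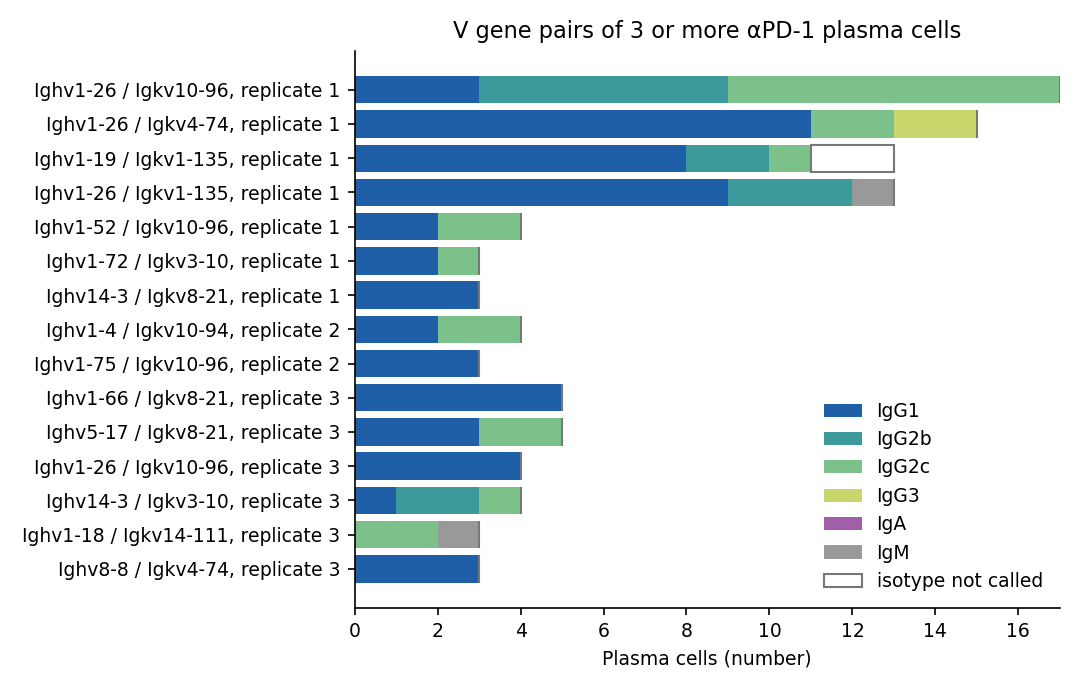
Heavy and light V gene pairs carried by 3 or more plasma cells of an αPD-1 sample, 1 bar per pair and sample with its number of cells, colored by heavy chain class. In replicate 1 the 4 largest pairs hold 17, 15, 13 and 13 of 101 cells, while the largest pair has 4 of 12 cells in replicate 2 and 5 of 55 in replicate 3.

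Cells with the same V pair often differed in class. At least 2 classes were called within 9 of the 16 repeated pairs of replicate 1, 2 of 3 in replicate 2 and 6 of 12 in replicate 3. The 17 cells with Ighv1-26 and Igkv10-96 in replicate 1 were 3 IgG1, 6 IgG2b and 8 IgG2c. The 15 cells with Ighv1-26 and Igkv4-74 were mostly IgG1, with 11 IgG1, 2 IgG2c and 2 IgG3. All 5 cells with Ighv1-66 and Igkv8-21 in replicate 3 were IgG1. Over replicate 1 as a whole, IgG1 was called in 51.1% of cells with Ighv1-26 and 54.7% of the others.

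The next comparison set plasma cells against B cells of the same αPD-1 samples, on the summed UMIs of each class in each sample, by edgeR's quasi-likelihood test with the sample as a block. The gates set these types apart, so the comparison describes their expression, and its p-values bear only on genes outside the gates. Of 8577 genes tested, 2052 (23.9%) were higher and 2198 (25.6%) lower in plasma cells at an adjusted p under 0.05, which is 49.6% in either direction. In 60.7% of genes the 3 plasma cell sums did not overlap the 3 B cell sums, and the median log2 difference over all genes was -0.076. Levels below are CPM on TMM-scaled libraries, per sample in the order of replicates 1 to 3, and adjusted p-values are Benjamini-Hochberg values of this fit.

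Of 18 plasma cell factors, 16 were higher and 2 lower, with a median log2 difference of 3.36. Xbp1 rose from 51.9, 43.0 and 37.5 CPM in B cells to 2365, 2612 and 1742 in plasma cells (log2 5.65, SE 0.25, adjusted p = 3.63e-06). Prdm1, the repressor that ends the B cell program, rose from 6.33, 7.37 and 8.01 CPM to 83.4, 63.9 and 64.8 (log2 3.27, SE 0.26, adjusted p = 2.77e-05). Neither gene's groups overlapped. Irf4, which both activated B cells and plasma cells express, rose by less, from 208, 162 and 174 CPM to 307, 277 and 253 (log2 0.62, adjusted p = 0.0124, or 0.0631 with no filter on low counts).

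Ell2, an elongation factor that favors the secreted form of immunoglobulin mRNA, rose by 3.47 on the log2 scale, and Tent5c, a poly(A) polymerase that stabilizes immunoglobulin mRNA, by 4.94. Cd28, a costimulatory receptor on T cells that long-lived plasma cells also carry, rose from 3.797, 3.07 and 3.79 CPM to 194, 135 and 132 (log2 5.35). The T cell genes Trac and Trbc2 had 4, 0 and 1 UMIs in the same cells. The gate had already removed barcodes with a Cd3 UMI, so these counts are not independent of it. The 2 factors that were lower were Cd38, at 121, 105 and 117 CPM in B cells and 12.4, 0 and 9.82 in plasma cells, and Zbtb20 (log2 -1.61).

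Of 22 tested B cell identity genes none was higher and 20 were lower, with a median log2 difference of -3.67. Pax5, the factor that holds B cell identity, fell from 511, 457 and 545 CPM to 28.6, 0 and 19.6 (log2 -4.70, SE 0.39, adjusted p = 3.32e-05). Ebf1, an early B cell factor, and Bach2, a repressor of Prdm1, had log2 differences of -4.23 and -4.56. Ciita, which drives MHC class II genes, changed by -3.98, and H2-Aa, a class II chain, went from 3547, 3670 and 3127 CPM to 635, 291 and 689. The groups did not overlap for any of these genes. Some B cell transcripts were still found, and Pax5 had a UMI in 9.26%, 0% and 12.3% of plasma cells.

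The 2 B cell genes that did not pass were Blnk, an adaptor of B cell receptor signaling, and Fcrla, an intracellular immunoglobulin-binding protein. Blnk was at 303, 368 and 374 CPM in B cells and 484, 405 and 320 in plasma cells (log2 0.20, adjusted p = 0.515). Fcrla was at 149, 171 and 155 CPM and 203, 220 and 98.2 (log2 0.06, adjusted p = 0.844). Both overlapped, and the sign of both changed under at least 1 alternative.

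**Figure D4:**
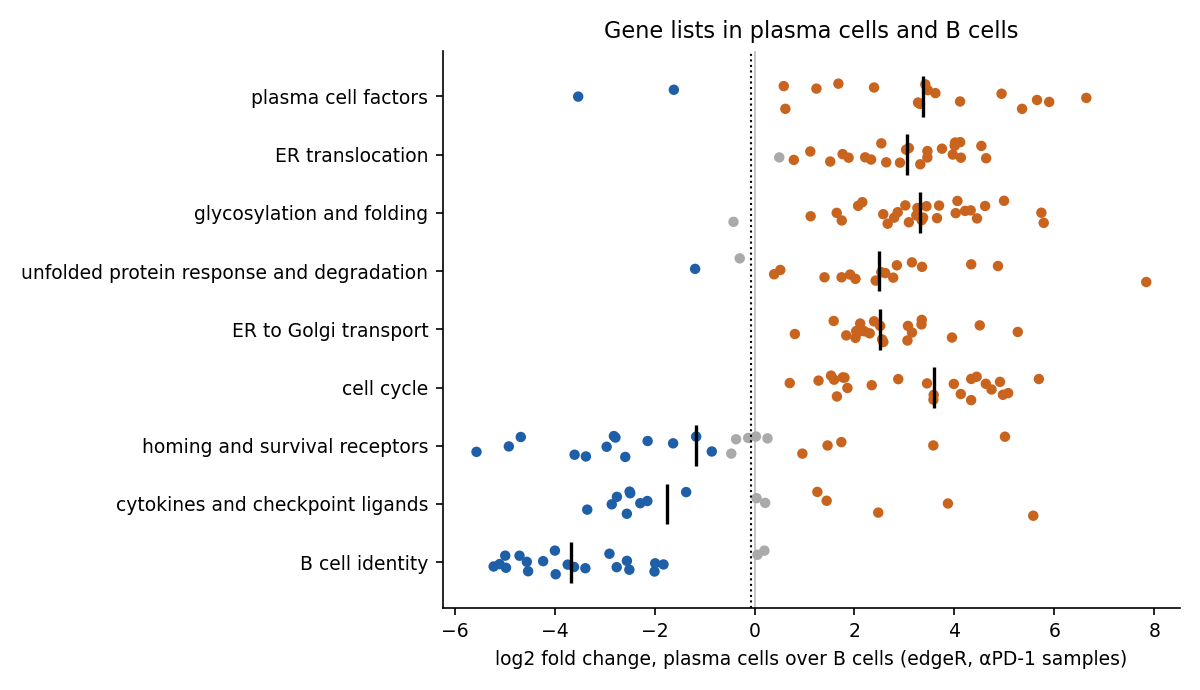
Log2 difference between plasma cells and B cells of the 3 αPD-1 samples for the genes of each list, 1 point per tested gene (orange higher, blue lower, gray not past an adjusted p of 0.05), a black bar at each list's median and a dotted line at the median of all genes. The secretory and cell cycle lists lie at medians of 2.48 to 3.58, B cell identity genes at -3.67 and all 8577 genes at -0.076.

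The secretory pathway was higher almost throughout. Of 24 genes of ER translocation, 23 were higher and none lower (median log2 3.06). Sec61b, a subunit of the channel that proteins enter the ER through, rose from 120, 109 and 130 CPM to 1587, 1768 and 1480 (log2 3.75, adjusted p = 8.31e-06). Ssr4, of the translocon-associated complex, rose by 4.13, the signal peptidase genes Spcs1 and Sec11c by 4.54 and 4.01, and Srprb, which anchors the signal recognition particle receptor, by 4.12. Sec62, of a post-translational entry route, did not pass (log2 0.50, adjusted p = 0.0987) except without replicate 2 (log2 0.79, adjusted p = 0.00141) or with immunoglobulin genes left out (adjusted p = 0.00476).

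Of 28 tested folding genes, 27 were higher and none lower (median log2 3.30). Hsp90b1, the ER chaperone GRP94, rose from 244, 293 and 254 CPM to 8748, 8540 and 7862 (log2 4.99, SE 0.17, adjusted p = 1.66e-06). Hspa5, the ER chaperone BiP that binds immunoglobulin heavy chains, rose from 863, 860 and 701 CPM to 3224, 4068 and 2957 (log2 2.07, SE 0.18, adjusted p = 4.35e-05). The plasma cell and B cell sums did not overlap for either chaperone.

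Creld2 and Prdx4, both acting on disulfides in the ER, rose by 5.79 and 5.74 on the log2 scale, Sdf2l1 by 4.61, Manf by 4.33 and the disulfide isomerase Pdia4 by 4.03. Stt3b, a catalytic subunit of oligosaccharyltransferase, was at 106, 125 and 136 CPM in B cells and 115, 63.9 and 76.6 in plasma cells and did not pass (log2 -0.42, adjusted p = 0.143). It passed without replicate 1 (log2 -0.86, adjusted p = 0.0122). All 21 tested genes of ER to Golgi transport were higher (median log2 2.52). Lman1, a cargo receptor for glycoproteins, rose by 5.27, the COPII coat gene Sec24d by 4.51, Kdelr2, which returns ER proteins from the Golgi, by 3.95 and Tmed10 by 3.07.

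Of 18 tested genes of the unfolded protein response, 16 were higher and 1 lower (median log2 2.48). Ern1 (IRE1α), the sensor that splices Xbp1 mRNA, rose from 27.8, 22.1 and 24.9 CPM to 171, 114 and 167 (log2 2.62, adjusted p = 7.23e-06), and Atf6, the sensor that is cleaved in the Golgi, rose by 2.02. Edem1, Herpud1 and Sel1l, which act in the degradation of misfolded ER proteins, rose by 4.34, 3.35 and 3.15.

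Of 4 members tied to the sensor PERK, 2 were higher, 1 was lower and 1 did not pass. Atf4, the transcription factor translated on PERK signaling, rose from 220, 241 and 219 CPM to 349, 319 and 302 (log2 0.52, SE 0.17, adjusted p = 0.0336), a call lost by DESeq2 (adjusted p = 0.0956) and without replicate 1 (adjusted p = 0.151). Eif2ak3, which encodes the sensor PERK, was at 157, 161 and 161 CPM in B cells and 205, 213 and 210 in plasma cells, with a log2 difference of 0.39 and an adjusted p of 0.0497, which was 0.315 by DESeq2, 0.175 without replicate 1 and 0.0912 without replicate 3. Ddit3 (CHOP), the death-linked factor of that branch, was at 26.6, 35.6 and 23.2 CPM in B cells and 19.9, 21.3 and 23.6 in plasma cells and did not pass (log2 -0.30, adjusted p = 0.419). Ppp1r15a (GADD34), which restores translation, fell from 1073, 1356 and 942 CPM to 505, 589 and 389 (log2 -1.19, adjusted p = 0.00158).

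Some of these genes share a promoter element. The ER stress response element, searched on both strands as CCAAT followed by any 9 bases and CCACG in the 250 bases before the start, was held by 8 of the 27 folding genes with a RefSeq promoter (29.6%: Calr, Canx, Creld2, Dnajc3, Ero1b, Hsp90b1, Hspa5 and Pdia6) and by 2 of 17 unfolded protein response genes (11.8%: Derl3 and Syvn1). It was in 35 of all 27025 promoters (0.130%), and in none of the 17 translocation, 18 transport, 21 cell cycle and 17 B cell identity promoters. The XBP1 element, searched as TGACGTGG on both strands, was in 2 of 27 folding genes (Txndc11 and Txndc5), 3 of 18 transport genes (Copb1, Kdelr3 and Sec24d) and 163 of all promoters (0.603%). It was in none of the 17 unfolded protein response, 17 translocation, 21 cell cycle and 17 B cell identity promoters. A match describes letters in this window and is neither a bound site nor a cause of the differences above.

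The promoters of Hsp90b1, Hspa5, Creld2 and Derl3 are printed because these genes held the element and were among the genes described here. They are the 250 bases before the annotated start, 5′ to 3′ on the gene's strand, from RefSeq on GRCm38.p6, and capitals mark each match to the ER stress response element or its reverse complement. Hsp90b1 holds 2 matches and the others 1 each.
Hsp90b1 (chr10:86705445-86705694, minus strand): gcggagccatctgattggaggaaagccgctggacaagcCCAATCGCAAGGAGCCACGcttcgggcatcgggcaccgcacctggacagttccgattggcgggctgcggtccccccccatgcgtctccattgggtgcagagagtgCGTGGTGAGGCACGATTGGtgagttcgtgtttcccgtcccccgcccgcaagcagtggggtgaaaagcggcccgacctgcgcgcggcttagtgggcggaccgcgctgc
Hspa5 (chr2:34771840-34772089, plus strand): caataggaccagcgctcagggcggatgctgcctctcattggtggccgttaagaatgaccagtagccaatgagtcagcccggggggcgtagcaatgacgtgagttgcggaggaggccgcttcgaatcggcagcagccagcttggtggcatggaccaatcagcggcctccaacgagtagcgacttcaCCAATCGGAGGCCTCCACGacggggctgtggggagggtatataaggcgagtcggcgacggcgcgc
Creld2 (chr15:88819396-88819645, plus strand): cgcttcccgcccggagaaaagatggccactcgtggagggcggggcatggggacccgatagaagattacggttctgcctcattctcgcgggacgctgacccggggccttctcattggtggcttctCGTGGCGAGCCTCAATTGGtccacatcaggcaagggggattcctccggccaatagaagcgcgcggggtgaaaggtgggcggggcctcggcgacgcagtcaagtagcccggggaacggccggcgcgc
Derl3 (chr10:75893148-75893397, plus strand): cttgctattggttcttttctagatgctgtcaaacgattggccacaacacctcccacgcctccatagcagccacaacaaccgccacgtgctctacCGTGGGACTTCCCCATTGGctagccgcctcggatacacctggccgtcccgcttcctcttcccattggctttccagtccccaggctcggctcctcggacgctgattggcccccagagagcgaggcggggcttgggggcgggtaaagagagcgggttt

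Plasma cells expressed more of the cell cycle genes. All 24 genes of that list were higher (median log2 3.58). Mki67, made by cycling cells, rose from 29.1, 25.2 and 16.9 CPM to 609, 689 and 577 (log2 4.74, SE 0.24, adjusted p = 4.08e-06). The mitotic genes Ube2c, Cdk1 and Top2a rose by 5.69, 4.97 and 3.45, Rrm2, which makes deoxynucleotides, by 4.45 and the replication helicase subunit Mcm6 by 1.77. Pcna overlapped, at 86.7, 93.9 and 115 CPM in B cells and 188, 71.0 and 192 in plasma cells (log2 0.71, adjusted p = 0.0282), and its adjusted p was 0.238 without replicate 1 and 0.227 by DESeq2.

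Because plasma cells were deeper than B cells, the share of cells with an Mki67 UMI was taken after thinning each cell to 1500 UMIs. It was 37.7% of plasma cells in replicate 1 (40 of 106, 95% exact interval 28.5 to 47.7), 33.3% in replicate 2 (5 of 15, 11.8 to 61.6) and 30.8% in replicate 3 (20 of 65, 19.9 to 43.4). B cells were at 3.07%, 3.01% and 2.24% and C1q macrophages at 10.4%, 11.9% and 7.04%. Thinning left out 2, 0 and 0 plasma cells and 128, 62 and 192 B cells. Unthinned, the shares were 74.1%, 66.7% and 66.2% in plasma cells and 3.52%, 3.25% and 3.07% in B cells. Top2a after thinning was found in 13.2%, 33.3% and 12.3% of plasma cells and 3.37%, 4.51% and 2.44% of B cells.

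**Figure D5:**
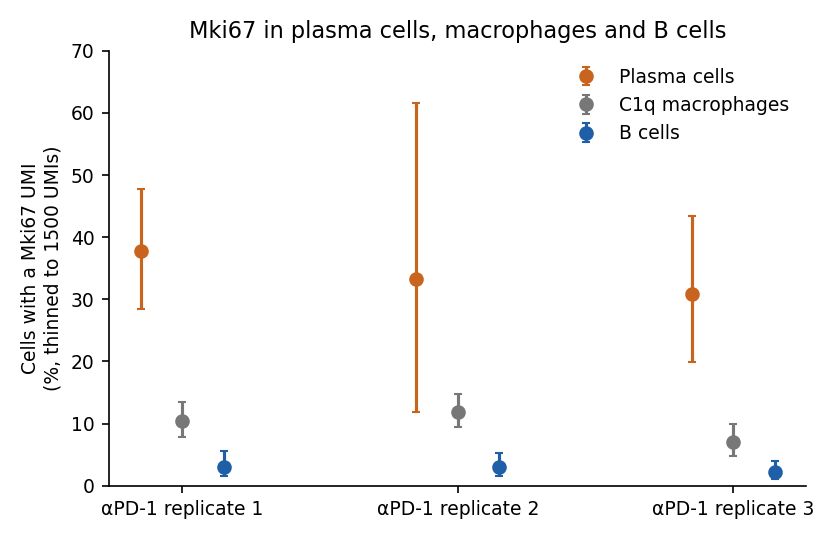
Percent of cells with an Mki67 UMI after thinning each cell to 1500 UMIs, for plasma cells, B cells and C1q macrophages of the 3 αPD-1 samples, 1 point per sample with its 95% exact binomial interval. Plasma cells lie at 30.8% to 37.7%, above B cells at 2.24% to 3.07% and macrophages at 7.04% to 11.9% in each sample.

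Within the plasma cells, Mki67 was found unthinned in 74.5%, 85.7% and 77.8% of IgG1 cells, in 80%, 60% and 70.6% of IgG2c cells and in 70.6%, 50% and 0% of IgG2b cells, the last from 8 cells in replicate 3 with a median of 5944.5 UMIs. Cells with Ighv1-26 had it in 72.3% against 80% of the others in replicate 1, and in 55.6% against 70% in replicate 3. IgG2b and IgG2c cells together were tested against IgG1 cells, a contrast added after the data were seen, and 0 of 2870 genes passed edgeR's adjusted threshold, with 153 at an unadjusted p under 0.05 and 0 by DESeq2. Sums did not overlap in 11.7% of genes. With the immunoglobulin genes left out, Ly6c2, a surface protein of activated lymphocytes and monocytes, was higher in IgG2 cells (log2 1.25, edgeR adjusted p = 0.0311). In the main fit Ly6c2 did not pass (log2 1.26, edgeR adjusted p = 0.733), and its sums overlapped.

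Receptors for homing and survival fell more often than they rose, with 5 of 23 higher and 13 lower (median log2 -1.17). Ccr7, a chemokine receptor that brings lymphocytes into lymph nodes, fell from 137, 129 and 101 CPM to 7.47, 0 and 1.96. S1pr1, an egress receptor, and the survival factor Bcl2 had log2 differences of -2.81 and -2.96. Cxcr3, the receptor for interferon-induced chemokines, rose from 5.06, 3.68 and 7.16 CPM to 85.9, 56.8 and 60.9 (log2 3.58, adjusted p = 3.17e-05). Ccr10, a receptor of mucosal and skin homing plasma cells, was at 2.53, 0 and 0 CPM in B cells and 28.6, 21.3 and 33.4 in plasma cells. Cd44 rose by 1.46, and Cxcr4, the receptor for the bone marrow ligand Cxcl12, did not pass (log2 -0.37, adjusted p = 0.0953, or 0.0414 with RLE size factors).

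Of 16 tested cytokines and checkpoint genes, 5 were higher and 9 lower (median log2 -1.76). Il10, an immunosuppressive cytokine, rose from 1.90, 4.91 and 5.06 CPM to 46.1, 114 and 41.2 (log2 3.87, SE 0.38, adjusted p = 8.09e-05). Ebi3, a subunit of IL-27 and IL-35, rose from 12.7, 7.37 and 9.69 CPM to 22.4, 14.2 and 33.4 (log2 1.26, adjusted p = 0.0190), a call lost without replicate 3 (adjusted p = 0.194) and by DESeq2 (adjusted p = 0.128). The inhibitory receptor Tigit was at 0.633, 0.614 and 0.843 CPM in B cells and 53.5, 42.6 and 27.5 in plasma cells, and Ctla4 rose by 2.48. Tnf, Ccl4 and the costimulatory ligand Cd86 were lower, with log2 differences of -2.29, -2.50 and -3.35. Cd274, which encodes the PD-1 ligand PD-L1, was at 126, 101 and 106 CPM in B cells and 126, 92.3 and 120 in plasma cells and did not pass (log2 0.04, adjusted p = 0.828).

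Of 10 tested immunoglobulin constant genes, 7 were higher and 1 lower. Ighg1 rose from 60.1, 3.07 and 17.3 CPM to 36642, 32570 and 39414, and Igkc from 825, 810 and 956 CPM to 38619, 40719 and 41250 (log2 5.54, adjusted p = 3.52e-08). Igha reached 1317 CPM in replicate 1 against 28.4 and 11.8 in the others, so its log2 difference of 5.59 rested mostly on that sample, and without it Igha did not enter the test. Ighd, made by naive B cells, fell by 5.08. Ighm overlapped, at 949, 966 and 1194 CPM in B cells and 1288, 405 and 1388 in plasma cells (log2 -0.18, adjusted p = 0.689).

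Over all genes outside the gates and the immunoglobulin genes, the 6 largest rises among those of at least 100 CPM in plasma cells were Slpi, Prg2, Derl3, Pon3, Cacna1h and Fkbp11. Slpi, a secreted protease inhibitor, rose from 27.8, 8.60 and 32.9 CPM to 11791, 6488 and 10721 (log2 8.85, SE 0.30, adjusted p = 1.66e-06). Prg2, the eosinophil major basic protein, had 1 UMI in the B cell sums and was at 138, 142 and 106 CPM in plasma cells, a depth-scaled ratio of 384 (95% exact interval for counting error 68.1 to 15259). Derl3, of ER-associated degradation, was at 1.27, 0 and 2.11 CPM in B cells and 321, 398 and 251 in plasma cells. Fkbp11, a prolyl isomerase of secretory cells, rose by 6.64, Pon3 by 7.13 and the calcium channel subunit Cacna1h by 6.70.

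The 6 largest falls, among genes of at least 100 CPM in B cells, were Cd72, Fcmr, Fcer2a, Serpinb1a, Cd22 and H2-Oa, with log2 differences of -5.81, -5.64, -5.22, -5.15, -5.10 and -4.99. Cd72 and Cd22 are inhibitory coreceptors of the B cell receptor. Fcmr and Fcer2a bind IgM and IgE, and H2-Oa modulates class II peptide loading. Cd22 was at 349, 305 and 303 CPM in B cells and 9.96, 0 and 11.8 in plasma cells. All 6 were at 0 in the 15 cells of replicate 2.

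Last, signals that support plasma cells were sought in the C1q macrophages, which were numerous in both groups. Between αPD-1 + corin and αPD-1, 18 of 11162 genes were higher (0.161%) and 7 lower (0.0627%) in macrophages by edgeR, 0.224% in either direction, and none of 12 tested niche ligands passed. These counts rested on single samples: without αPD-1 + corin replicate 3 they were 892 and 767, and without αPD-1 replicate 1 or 2 they were 0 and 0. By DESeq2 they were 207 and 79, and at an unadjusted p under 0.05, 3 of the 12 ligands and 1921 of the 11162 genes passed. Tnfsf13 (APRIL), a ligand of the plasma cell receptor Tnfrsf17, averaged 25.1 CPM in αPD-1 and 34.8 in αPD-1 + corin (log2 0.50, adjusted p = 0.315). Tnfsf13b (BAFF) averaged 8.47 and 3.82 CPM (log2 -1.35, adjusted p = 0.261), and its adjusted p was 0.0210 without αPD-1 + corin replicate 3. Cxcl12 averaged 0.234 and 4.34 CPM (log2 4.21, adjusted p = 0.0508) and passed by DESeq2 (adjusted p = 0.0126) and without αPD-1 + corin replicate 3 (adjusted p = 0.00653). Its αPD-1 mean lay near the detection floor, so the size of this log2 difference is uncertain. In the same macrophage sums 3 of 4 fibroblast markers were higher, and their part in the Cxcl12 value was not tested.

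Jchain UMIs were also counted in macrophages and T cells, which should lack the gene. In macrophages they were at 180, 0 and 180 raw CPM in αPD-1 and 3.66, 17.1 and 0 in αPD-1 + corin. In αPD-1 replicates 1 and 3, 452 of 475 and 350 of 382 of these UMIs lay in 5 barcodes each. A Jchain UMI was in 5.54%, 0% and 3.39% of αPD-1 macrophages, and T cells held Jchain at 31.2, 3.35 and 15.8 raw CPM.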

How the data were processed

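Single-cell 5′ libraries of CD45+ tumor cells were analysed from 6 samples, 3 per group, as grouped by the labels. The authors deposited filtered UMI counts per gene and barcode for 32285 genes, not normalized, made with Cell Ranger 8.0 and read into Seurat 5.0.11 per the labels, which name GRCm39. The members, gates and gene lists were chosen with earlier results of these data known.

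The filters on barcodes were 600 to 4000 genes and a mitochondrial share of UMIs of 10% or less. Plasma cells, B cells and macrophages were gated on the genes given above, and doublets (Scrublet method) were kept except in an alternative that removed them. Shares were compared with exact permutation tests over samples. Each class was summed within each sample, and the sums were compared by the quasi-likelihood test of edgeR 4.0.16 in R 4.3.3 (TMM, low counts filtered, Benjamini-Hochberg threshold 0.05). Alternatives used DESeq2 1.42.0, RLE factors, no filter, other gates and each sample left out. In tests on simulated data, 199 of 200 genes changed 4-fold were recovered for plasma against B cells, with 11 false calls among 8192 genes. For IgG2 against IgG1 cells 181 of 200 were recovered (10 false among 2575), and for macrophages 200 of 200 (10 false among 10968). The simulated counts had the same dispersion for all genes, no sample effect and changes only among abundant genes. They test the code and do not give the error rates of the real fits.

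Genes named were up to 8 of each list, the 6 largest rises and 6 largest falls without overlap and with at least 100 CPM, and the 5 V genes in most cells (Ighv1-26, Igkv10-96, Igkv1-135, Igkv4-74 and Igkv8-21). Ighv1-19, of a frequent pair, was added after its values were seen. V gene positions came from GENCODE vM39 and promoters from RefSeq. Intervals are exact binomial and cover counting error only. The comparison of plasma cells by treatment and of switched with IgM cells could not be fitted. Single-gene values of some list members are not reported here.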

Additional observations from a re-analysis of the deposited data

Results flagged for a closer look

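Barcodes that passed the 4-gene threshold but were kept out of the plasma cells by a UMI of Ms4a1, Siglech or Cd3 or by more than 1 UMI of the C1q genes entered no comparison. They made up 2.67%, 0.425% and 1.90% of kept barcodes in αPD-1 and 0.0481%, 0.0479% and 0.0406% in αPD-1 + corin, with means of 1.66% ± 1.14 and 0.0455% ± 0.00431 (SD, n = 3 each), so the signal outside the gate was above the level in the other group. In αPD-1, Ms4a1 kept out 63, 10 and 45 barcodes, Cd3 genes 68, 11 and 50 and C1q genes 58, 3 and 40, and 58, 7 and 38 barcodes met more than 1 exclusion. Their median UMIs were 9125, 10548 and 8176.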

How the results depend on the processing

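The difference in plasma cell share of kept barcodes stayed negative in all alternatives run, from -3.01 to -1.18 percentage points, and from -1.91 to -0.902 with 1 sample left out, the smallest without αPD-1 replicate 1. On cell counts, edgeR gave a log2 ratio of -5.49, past the 0.05 threshold, and -5.35 with a replicate block, not past it. The share of B lineage barcodes turned to 0.116 without the gate exclusions and to 2.66 thinned to 1000 UMIs, and ranged from -8.62 to -0.588 with 1 sample left out. The cause was not tested. IgG1 shares ranged from 51.7% to 55.3% with 1 sample left out.

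For plasma cells against B cells, 1423 to 2221 genes were higher and 1695 to 2730 lower over the alternatives, and 1577 to 2025 and 1546 to 2097 with 1 sample left out. The median of all genes moved from -0.076 to -0.17 with RLE factors, -0.20 by DESeq2 and -0.51 without a filter. Of 936 repeats over 86 named genes, 903 kept direction and call, 16 lost the call, 7 gained it and 10 changed sign. Fcrla changed sign by DESeq2 (-0.040), with RLE factors (-0.037), and without a filter (-0.039), Cd274 by DESeq2 (-0.064), with RLE factors (-0.055) and without a filter (-0.053). With 1 sample left out, Fcrla ranged from -0.19 to 0.46, Blnk from -0.044 to 0.46 and Ighm from -0.50 to 0.33. None of these was called.

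IgG2 against IgG1 cells gave 42 genes higher and 35 lower without a filter, 1 higher with immunoglobulin genes left out, and 1 to 12 higher and 0 to 4 lower with 1 sample left out. The genes called without αPD-1 replicate 1 or 2 were the V genes Igkv4-59, Igkv12-41, Ighv1-66 and Igkv6-23. Macrophages gave 207 higher and 79 lower by DESeq2, 646 and 219 without a filter, 40 and 14 with immunoglobulin genes left out, 10 and 1 with doublets removed, and 0 to 892 and 0 to 767 with 1 sample left out, the highest without αPD-1 + corin replicate 3. With the replicate block 17 were higher and 2 lower. Deviations of same-numbered samples from their group means were correlated at 0.051, -0.17 and -0.19. With so few samples per group, these values cannot tell whether samples of the same number share a batch. The fits of plasma cells by treatment and of switched against IgM cells were not run, for lack of cells.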

Other observations

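UMIs of the light chain constant genes set plasma cells and B cells apart, and those of the light V genes did so less. Lambda constant genes held 9.32%, 7.94% and 6.30% of light constant UMIs in αPD-1 plasma cells, and no plasma cell had more lambda than kappa. In B cells of the same samples they held 64.6%, 66.4% and 58.1%, and 304 of 454, 316 of 461 and 384 of 684 B cells had more lambda than kappa. Of light V UMIs, lambda V genes held 8.12%, 9.06% and 7.06% in B cells and 4.45%, 5.81% and 5.97% in plasma cells. Kappa is known to predominate in B cells of C57BL/6 mice, so the B cell values of the constant genes, unlike those of the V genes, go against the usual ratio. The light chain annotation used in the counting was not checked, so they are values of the deposited counts and not shares of lambda B cells. The cause was not tested.

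Iglv1, a lambda V gene, had a UMI in 104 of 108, 14 of 15 and 62 of 65 plasma cells, all of them called kappa where a light chain was called. It held a median of 2.86%, 2.10% and 2.79% of light V UMIs per plasma cell. Among B cells, 13.4%, 8.68% and 11.0% had an Iglv1 UMI, at a lower depth per cell.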
